A study of Mus musculus with 2 samples.

Results

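The Mir181 family is a set of 6 microRNA genes in 3 clusters of the mouse genome, taken here by gene name: Mir181a-1 and Mir181b-1 on chromosome 1, Mir181a-2 and Mir181b-2 on chromosome 2, and Mir181c and Mir181d on chromosome 8. All 6 were found among the 2202 microRNA genes of the deposited tables. The tables come from microRNA-seq of the left cerebral cortex of 2 female mice of the hybrid strain B6CASTF1/J, aged 36 days, with no treatment given in the labels. Both mice belong to a single group, as separate biological replicates (mouse 1 and mouse 2) under the same donor code, so the data hold no comparison between conditions. Each mouse gave 1 library.

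A microRNA is cut from a hairpin whose 5′ and 3′ sides each yield an arm, called 5p and 3p, and bases 2 to 8 of an arm, the seed, do most of the pairing with target messenger RNAs. Hairpins that lie close together on the same strand are often cut from a shared primary transcript. The miR-181 microRNAs are best known from developing lymphocytes, where miR-181a tunes the sensitivity of the T cell receptor, and they are also abundant in brain, where they have been studied in synaptic plasticity, in astrocytes and in the response to ischaemia.

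The mature sequences are shown first because they decide which reads can be assigned to a single gene. RefSeq (GRCm38.p6) holds mature sequences for all 6 genes, with 4 distinct 5p arms and 6 distinct 3p arms, each printed 5′ to 3′ with the seed in capitals. The 5p arms are these.
miR-181a-5p: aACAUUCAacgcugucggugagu
miR-181b-5p: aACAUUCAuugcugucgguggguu
miR-181c-5p: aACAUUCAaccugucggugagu
miR-181d-5p: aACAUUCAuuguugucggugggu
All 4 share 1 seed, and no other mature mouse microRNA among the 1679 names in the RefSeq table has it. Counting positions from 1 at the 5′ end, miR-181b-5p differs from miR-181d-5p over 23 bases by the single substitution C12U. From miR-181a-5p to miR-181b-5p there are 3 substitutions (A9U, C10U and A21G). The sequence of miR-181c-5p is that of miR-181a-5p without the base at position 11.

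The 3p arms, the other side of each hairpin, are less alike and carry 4 different seeds.
miR-181a-1-3p: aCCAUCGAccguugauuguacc
miR-181a-2-3p: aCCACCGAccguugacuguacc
miR-181b-1-3p: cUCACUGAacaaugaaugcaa
miR-181b-2-3p: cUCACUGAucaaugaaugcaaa
miR-181c-3p: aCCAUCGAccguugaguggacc
miR-181d-3p: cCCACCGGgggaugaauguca
The arms miR-181a-1-3p and miR-181c-3p have a seed in common, although their genes lie on different chromosomes, and miR-181b-1-3p and miR-181b-2-3p have another. From miR-181a-1-3p to miR-181a-2-3p the substitutions are U5C, which lies in the seed, and U16C. From miR-181b-1-3p to miR-181b-2-3p there is 1 substitution over 21 bases, A9U, just past the seed.

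Sequence sharing between hairpins splits the family. The miR-181a-5p arm is present whole in both Mir181a-1 and Mir181a-2, and miR-181b-5p in both Mir181b-1 and Mir181b-2, while each 3p arm and both 5p arms of Mir181c and Mir181d occur in 1 annotated hairpin only. The shared run is 28 bases between the Mir181a hairpins and 26 bases between the Mir181b hairpins. For miR-181a-5p it reaches 1 base before and 4 bases past the mature arm. For miR-181b-5p it reaches 2 bases before the arm and ends with it: the next base is G in Mir181b-1 and U in Mir181b-2. In these tables a read with more than 1 mapping place is given to no gene, and there were 1.27 such reads for each read assigned to a gene in mouse 1 and 1.25 in mouse 2. The counts of the 4 copies therefore leave out reads that fit both loci, such as exact miR-181a-5p and miR-181b-5p reads, and the number left out per gene is unknown. Mir181c and Mir181d share no run longer than 17 bases with another family hairpin and no window of 22 bases with any of the 2202 hairpins. The counts are per hairpin, so 5p and 3p reads cannot be told apart.

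On the mm10 assembly with the GENCODE M21 annotation, Mir181a-1 (chromosome 1, 137966455 to 137966541, plus strand) lies 97 bases before Mir181b-1 (137966639 to 137966718). Both are in an intron of the non-coding gene Gm4258 and opposite an intron of the long non-coding gene Gm26936. Mir181b-1 also lies wholly in an exon of the long non-coding gene A430106G13Rik, with which Mir181a-1 overlaps by 11 bases. Mir181a-2 (chromosome 2, 38852735 to 38852810, plus strand) and Mir181b-2 (38853830 to 38853918) are 1019 bases apart, in no annotated gene on their own strand. They lie opposite an intron of Nr6a1, which encodes an orphan nuclear receptor of germ cells and early embryos, and Mir181b-2 lies opposite an exon of the unclassified transcript Gm44144 too. Mir181c (chromosome 8, 84178873 to 84178961, minus strand) lies 85 bases before Mir181d (84178716 to 84178787) in the direction of transcription, both in an intron of Nanos3, a gene of germ cell development. No member overlaps another annotated microRNA gene, and all 6 had 0 counts on the opposite strand in both mice.

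**Figure D1:**
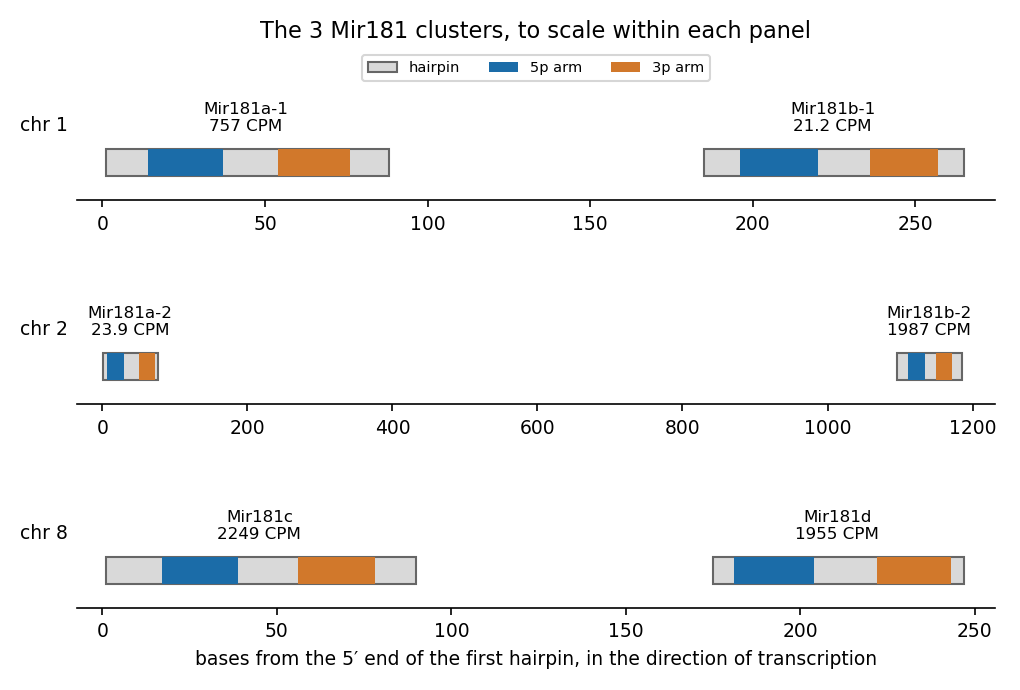
Hairpins (grey boxes) of the 3 Mir181 clusters with their 5p arms (blue) and 3p arms (orange), 1 panel per chromosome; the horizontal axis is the distance in bases from the 5′ end of the first hairpin in the direction of transcription, and the number above each hairpin is its mean level in CPM (sense counts scaled to a library total of 1000000) over 2 mice. The hairpins are 97 bases apart on chromosome 1, 1019 on chromosome 2 and 85 on chromosome 8. On chromosomes 1 and 2 the 2 hairpins of a cluster differ widely in assigned reads, which leave out exact miR-181a-5p and miR-181b-5p reads.

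Depth was similar in both libraries, with 1930234 sense-strand counts over all microRNA genes in mouse 1 and 1863876 in mouse 2. Levels below are in CPM, a gene's sense counts scaled to a library total of 1000000. They count whole short reads and are not divided by hairpin length, which ran from 72 to 89 bases. As the tissue check, neuronal marker genes were high, with Mir128-1 at 16282 and 17178 CPM and Mir132 at 29894 and 64860 CPM in mouse 1 and mouse 2. The 3 Mir124a copies, also neuronal and also multi-locus, had only 1 to 4 counts per mouse. The muscle gene Mir206 stood at 38.3 and 25.2 CPM, above Mir181b-1 and Mir181a-2. Of the 6 muscle genes 4 had 0 counts in both mice: Mir1a-1, Mir133a-1, Mir133a-2 and Mir133b. All of these but Mir133b are named as copies of a multi-locus microRNA, whose reads may have been given to no gene. Their 0 counts therefore do not show absence. For assigned reads, 3 counts, the limit that a count of 0 allows, come to 1.55 CPM in the first mouse or 1.61 CPM in the second. These floors and all intervals below cover counting error only, since no molecular identifiers are named.

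All 6 Mir181 genes were read in both mice, and their mean levels spanned a 106-fold range. Together they had 12697 counts in mouse 1 and 13807 in mouse 2, or 0.658% and 0.741% of the sense counts (0.699% ± 0.0587, SD, n = 2). Mir181c, Mir181b-2 and Mir181d formed a high group with means from 1955 to 2249 CPM, Mir181a-1 was intermediate, and Mir181a-2 and Mir181b-1 were far lower. All these levels are of assigned reads, which leave out exact miR-181a-5p and miR-181b-5p reads.

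Mir181c, which has its 5p arm to itself in the genome's microRNA annotation, was counted 3956 times in mouse 1 and 4565 times in mouse 2. Its level was 2049 and 2449 CPM (2249 ± 283, SD, n = 2), which placed it 64th by mean among the 2202 genes. Its cluster partner Mir181d was counted 3099 and 4294 times, at 1605.5 and 2304 CPM (1955 ± 494). Both were higher in mouse 2. The chromosome 8 cluster is the only one whose genes had similar assigned counts. It is also the only one whose 5p arms are not shared with another hairpin. The counts of the other clusters leave out exact miR-181a-5p and miR-181b-5p reads, so the balance within clusters cannot be compared between them. Mir181c held 56.1% of the pair's counts in mouse 1 (exact binomial 95% interval 54.9 to 57.2) and 51.5% in mouse 2 (50.5 to 52.6).

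Mir181b-2, the second hairpin of the chromosome 2 cluster, was counted 4306 and 3249 times, at 2231 and 1743 CPM (1987 ± 345). It was the highest member in mouse 1 and the third in mouse 2. Its partner Mir181a-2 was counted 59 and 32 times, at 30.6 and 17.2 CPM (23.9 ± 9.47). In assigned reads the partners therefore differed 73.0-fold in mouse 1 and 101.5-fold in mouse 2. The run shared between copies goes 4 bases past miR-181a-5p but ends with miR-181b-5p, so the partners' assigned reads are not alike. Their ratio with the unassigned reads included is unknown. Mir181b-2 took 98.6% of the cluster's counts in mouse 1 (98.3 to 99.0) and 99.0% in mouse 2 (98.6 to 99.3), intervals that overlap.

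On chromosome 1 it was the a hairpin that held nearly all assigned counts. Mir181a-1 was counted 1225 and 1638 times, at 635 and 879 CPM (757 ± 173). Mir181b-1 was counted 52 and 29 times, at 26.9 and 15.6 CPM (21.2 ± 8.05). In assigned reads the partners thus differed 23.6-fold in mouse 1 and 56.5-fold in mouse 2. Here too the partners' assigned reads are not alike, and their ratio with the unassigned reads included is unknown. Mir181a-1 took 95.9% of the cluster's counts in mouse 1 (94.7 to 96.9) and 98.3% in mouse 2 (97.5 to 98.8). These intervals do not overlap, but both mice had the same gene far above its partner.

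In order of mean level, Mir181c, Mir181b-2 and Mir181d followed each other with overlapping ranges over the 2 mice, so their order is not resolved, and Mir181a-2 and Mir181b-1 overlapped as well. Divided by hairpin length, Mir181d came first at 2715 CPM per 100 bases, ahead of Mir181c at 2527 and Mir181b-2 at 2233. The steps from Mir181d down to Mir181a-1 (2.58-fold by means) and from Mir181a-1 down to Mir181a-2 (31.7-fold) lay outside the ranges. Genes nearest in mean level were Mir668 (2331 CPM) and Mir434 (2257 CPM) above Mir181c, and Mir34a (1982 CPM) and Mir338 (1972 CPM) below Mir181b-2. Beside Mir181a-1 were Mir3102 (779 CPM) and Mir1983 (736 CPM), and beside Mir181b-1 were Mir3061 (21.3 CPM) and Mir192 (20.96 CPM). With 2 samples no likeness of pattern was computed.

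**Figure D2:**
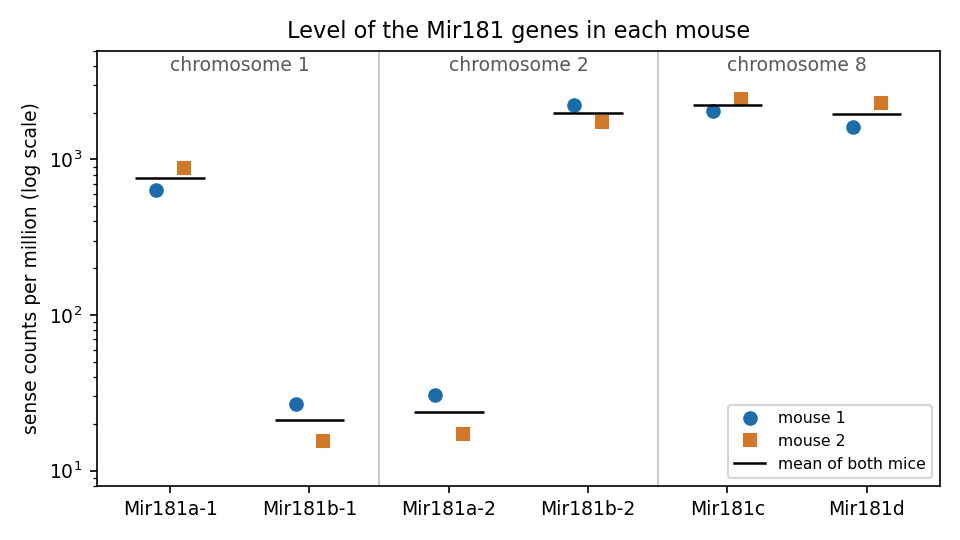
Level of each Mir181 gene in CPM (vertical log axis) in mouse 1 (circles) and mouse 2 (squares), with the mean of both as a bar, ordered by cluster. Mir181c, Mir181d and Mir181b-2 lie between 1605.5 and 2449 CPM, Mir181a-1 at 635 and 879 CPM, and Mir181b-1 and Mir181a-2 between 15.6 and 30.6 CPM. Levels are of assigned reads, which leave out exact miR-181a-5p and miR-181b-5p reads.

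Set against each other across chromosomes, the copies that share a 5p arm were also uneven. Mir181a-1 held 95.4% of the counts of both Mir181a copies in mouse 1 (94.1 to 96.5) and 98.1% in mouse 2 (97.3 to 98.7). Mir181b-2 held 98.8% of the counts of both Mir181b copies in mouse 1 (98.4 to 99.1) and 99.1% in mouse 2 (98.7 to 99.4). The higher copy is thus on chromosome 1 for Mir181a and on chromosome 2 for Mir181b. These shares describe reads that fit 1 copy only, and say nothing of how the unassigned miR-181a-5p and miR-181b-5p reads divide between the loci.

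Other brain microRNAs with several copies were less uneven in most cases. Of 9 such sets in a fixed list, 7 had at least 100 counts in each mouse, and in 6 of these 7 the higher copy held at most 83.9% of the set's counts in either mouse. The exception was Mir219a, an oligodendrocyte microRNA, whose copy Mir219a-2 held 99.3% in mouse 1 and 99.6% in mouse 2. Mir128-1 held 81.4% and 83.9% of the Mir128 counts, and Mir26a-1 held 49.1% and 63.1% of the Mir26a counts. The difference between the Mir181 copies and these sets was not tested, and all shares are of reads that fit 1 copy only. The copies share 1 mature arm for Mir181a and Mir181b but 2 for Mir9, so the reads counted are not alike across sets. Among annotated genes with a mature sequence in RefSeq, 61 share 1 arm, but not every arm, with another hairpin, as the 4 Mir181a and Mir181b genes do. Their median level was 21.2 CPM, and 34 of the 61 reached 10 CPM in both mice. Mir181b-1 is the gene at that median, Mir181a-2 lay close to it, and Mir181a-1 and Mir181b-2 lay above the class's upper quartile of 225 CPM. Of the 53 genes that share every arm with another hairpin, 6 reached 10 CPM in both mice. Of the 904 with arms in 1 hairpin only, such as Mir181c and Mir181d, 236 did. A further 1183 genes have no mature sequence there and could not be classed, and 28 of them reached that level.

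**Figure D3:**
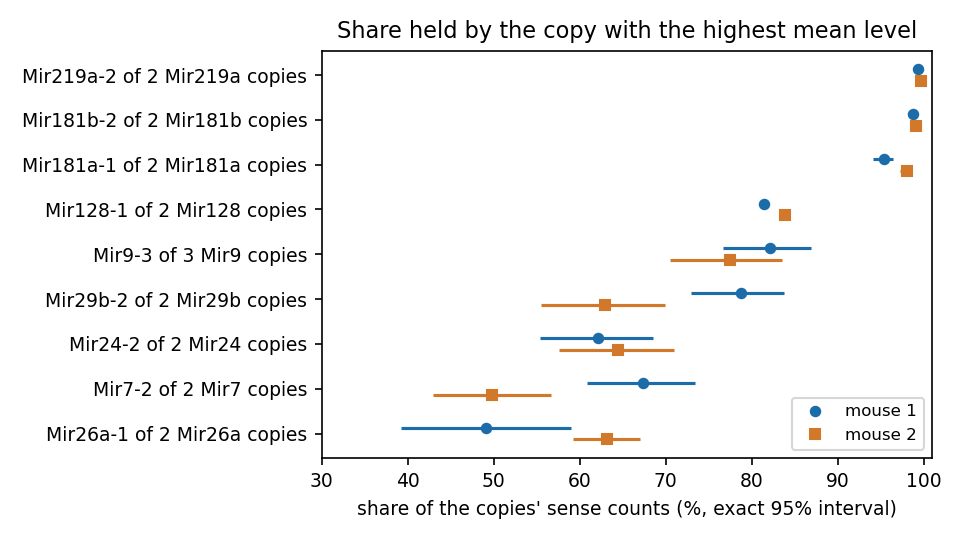
Share of a microRNA's sense counts (horizontal axis, %) held by its copy with the highest mean level, for multi-copy brain microRNAs with at least 100 counts in each mouse; circles are mouse 1, squares mouse 2, and lines exact 95% binomial intervals. The higher Mir181a and Mir181b copies stand above 95%, beside Mir219a, and the other sets lie between 49.1% and 83.9%. Shares are of assigned reads, which leave out reads that fit several copies.

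The clusters differed between the mice in opposite directions. The chromosome 8 cluster held 55.6% of the family's counts in mouse 1 (54.7 to 56.4) and 64.2% in mouse 2 (63.4 to 65.0). The chromosome 2 cluster held 34.4% (33.6 to 35.2) and 23.8% (23.1 to 24.5), and the chromosome 1 cluster 10.1% (9.54 to 10.6) and 12.1% (11.5 to 12.6). These shares are of assigned reads, which leave out exact miR-181a-5p and miR-181b-5p reads of the chromosome 1 and 2 clusters. How the clusters rank with those reads included is unknown. The family's sum differed less than any cluster's, at 6578 CPM in the first mouse and 7408 CPM in the second. Log2 ratios here and below are of mouse 2 over mouse 1 on library sizes scaled by TMM, edgeR's trimmed mean of M-values, and so are slightly lower than the ratios of the CPM values. The family's log2 ratio was 0.12 (95% interval 0.09 to 0.16). The cluster sums had log2 ratios of 0.39 on chromosome 1, −0.41 on chromosome 2 and 0.33 on chromosome 8.

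Gene by gene, Mir181a-1, Mir181c and Mir181d were higher in mouse 2, and Mir181b-1, Mir181a-2 and Mir181b-2 were higher in mouse 1. The log2 ratios were 0.47 for Mir181d (95% interval 0.41 to 0.54), 0.42 for Mir181a-1 (0.31 to 0.53) and 0.21 for Mir181c (0.15 to 0.27). They were −0.40 for Mir181b-2 (−0.47 to −0.34), −0.84 for Mir181b-1 (−1.55 to −0.16) and −0.88 for Mir181a-2 (−1.55 to −0.24). On chromosome 1 the partners thus went opposite ways, while on chromosomes 2 and 8 they went the same way.

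An exact binomial test of each gene's pair of counts, with Benjamini-Hochberg adjustment over all 324 genes with a mean of at least 10 CPM, passed 0.05 for all 6 members. It passed for 74.7% of the 324 genes, so this is near the background of these libraries. Higher in mouse 2 were 3 members, against 38.0% of all tested genes, and higher in mouse 1 were 3, against 36.7%. The weakest was Mir181b-1, with 52 and 29 counts and an adjusted p of 0.0197 by the exact test. That test compares 2 libraries for counting error and not conditions, and with 1 library a mouse, animals and library preparation cannot be told apart. No member was at least 2-fold apart and past the exact test, while 19.4% of tested genes were. The member furthest apart, Mir181a-2, differed 1.84-fold, and 25% of tested genes differed by more. The median absolute log2 ratio was 0.45 over the 6 members and 0.53 over the 324 genes. The coefficient of variation over the mice ran from 12.6% for Mir181c to 39.7% for Mir181a-2. The biological coefficient of variation common to the 324 genes, by edgeR, was 0.399.

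**Figure D4:**
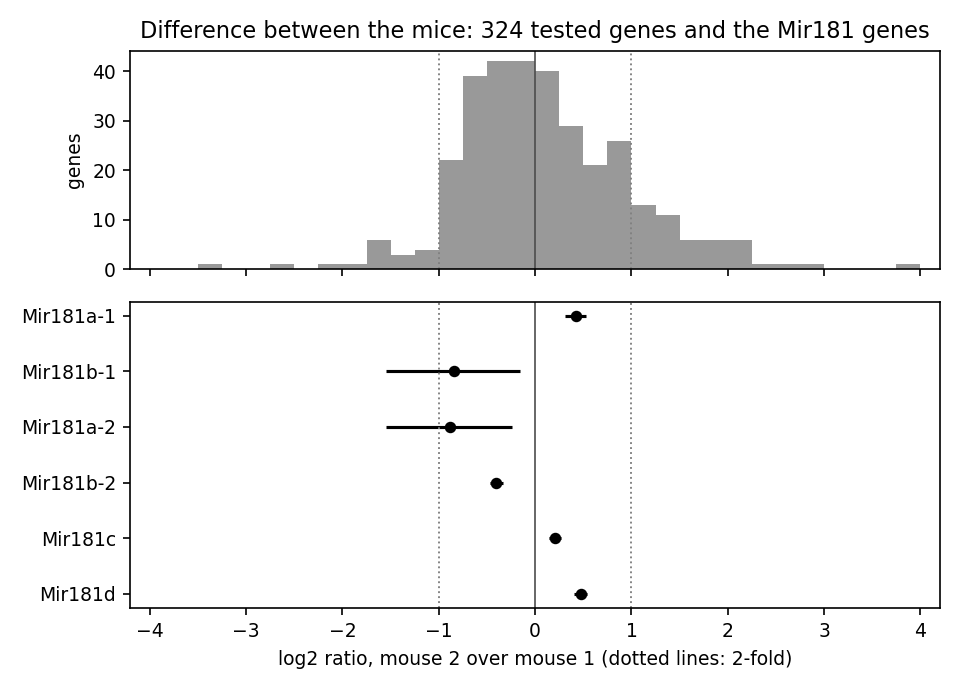
Log2 ratio of mouse 2 over mouse 1 (horizontal axis) for the 324 tested genes as a histogram (top, vertical axis in genes) and for the 6 Mir181 genes with 95% counting intervals (bottom); dotted lines mark 2-fold. All 6 points lie within 2-fold, 3 on each side of 0, and the intervals of Mir181b-1 and Mir181a-2, the genes with the fewest counts, are the widest and reach past 2-fold.

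Several marker sets also differed between the mice. The 3 oligodendrocyte genes had sums of 2756 and 5128 CPM in mouse 1 and mouse 2, with 2 of 3 tested and both past the exact test, higher in mouse 2. Of the 2 endothelial genes, Mir126a was at 11276 and 22380 CPM and Mir126b at 0 counts. The 3 erythroid genes had sums of 742 and 153 CPM, with 2 of 3 past the exact test and 2-fold, higher in mouse 1. The 10 neuronal genes had sums of 189800 and 186426 CPM, but of the 7 tested, 4 were higher in mouse 2 and 3 in mouse 1 by the exact test. Among them Mir139 stood at 132003 and 92535 CPM, and Mir132 was 2-fold higher in mouse 2. The 5 choroid plexus genes had sums of 742 and 680 CPM. Of the 4 tested, Mir429 was higher in mouse 2, and Mir200b, at 129 and 35.9 CPM, was more than 2-fold higher in mouse 1. By the same exact test 74.7% of all tested genes differed, and 19.4% were also at least 2-fold apart. The part of these marker sets in the differences of the Mir181 genes was not tested. In bulk tissue, fewer cells of a type and less RNA per cell cannot be told apart.

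MicroRNAs known from lymphocytes and other leukocytes, the cells in which miR-181a is best known, were present at lower levels than the leading Mir181 genes. The 5 genes of that list had sums of 2093 and 2417 CPM in mouse 1 and mouse 2, against 6578 and 7408 CPM for the Mir181 family. Mir150, a microRNA of mature lymphocytes, led the list at 1531 and 1263 CPM, above Mir181a-1 in both mice. Mir146 (named Mir146a elsewhere), a microRNA induced by inflammatory signals, stood at 453 and 945 CPM, above Mir181a-1 in mouse 2 only. Mir142, which is known from cells of the blood lineage, stood at 48.2 and 137 CPM, below Mir181a-1 in both mice. Mir223, a myeloid microRNA, had 11 and 22 counts. Mir146 and Mir142 were at least 2-fold higher in mouse 2 by the exact test, and no gene of the list was that far apart the other way. Of all 324 tested genes 19.4% were that far apart, 46 higher in mouse 2 and 17 higher in mouse 1.

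MicroRNAs studied at synapses were also read in both mice. All 13 genes of that list reached 10 CPM in each, and 6 of the 13 had a mean above that of every Mir181 gene. This ranking is of assigned reads, which leave out exact miR-181a-5p and miR-181b-5p reads. All 13 passed the exact test between the mice, 7 higher in mouse 2 and 6 higher in mouse 1, where 38.0% and 36.7% of all tested genes did so. Only Mir132 of the list, which neuronal activity induces, was also 2-fold apart, against 19.4% of all tested genes. Mir137, which is known from neuronal maturation, stood at 5768 and 9970 CPM, above every Mir181 gene. Mir129-2 (1523 and 1694 CPM) lay below Mir181c in both mice. Mir134, which is known to limit dendritic spine size, stood at 478 and 358 CPM, below Mir181a-1 in both mice.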

How the data were processed

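Short RNA of the left cerebral cortex was sequenced from 2 mice. The authors deposited whole-number read counts per microRNA gene, in tables without a header, on the mm10 assembly with GENCODE M21, per the submitters' README notes; no aligner, counter, setting or trimming step is named: not given in the sources used here. Its 3 count columns were read from their values as unstranded, sense and opposite-strand. Lines that name no gene were left out: in mouse 1 and mouse 2, reads at several places were 34.6% and 37.2% of all reads, unmapped reads 32.1% and 27.3%, and reads in no gene 6.11% and 5.63%. The hybrid's CAST alleles may have cost reads, which was not tested.

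CPM used all sense counts. Tests used 324 genes with a mean of at least 10 CPM: a two-sided exact binomial test against TMM library sizes (edgeR 4.0.16, factors 0.983 and 1.02), adjusted by Benjamini-Hochberg (SciPy 1.17.1), with Clopper-Pearson intervals, and a threshold of 0.05 with or without 2-fold. It was tested on simulated counts that held counting error only, without variation between animals. The common coefficient of variation came from an intercept-only edgeR fit. The libraries were not 1 library deposited as 2 (chi-square 244.7 per degree of freedom). Alternatives were library scaling (total counts, DESeq2 1.42.0 size factors), the unstranded column, no count filter, a GC trend removed, 1.5-fold, and each mouse alone. Shared runs were searched on the sense strand of the 2202 hairpin sequences of GENCODE M21. RefSeq gave the mature sequences.

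Genes named were the 6 members, genes next to them in mean level (2 on each side, some printed), and genes of the fixed lists. The members and lists were chosen with earlier results of these data known.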

Additional observations from a re-analysis of the deposited data

How the results depend on the processing

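All 6 log2 ratios kept their direction and stayed past the exact test under each of 6 alternatives: total counts, DESeq2 size factors, the unstranded column, no count filter, the GC trend removed, and TMM factors from the tested genes (the last added after the data were seen). Mir181b-1 ranged from −0.98 to −0.79, with adjusted p up to 0.0427, and Mir181c from 0.15 to 0.38. At 1.5-fold in place of 2-fold, 138 of the 324 tested genes and 2 of the 6 members, Mir181b-1 and Mir181a-2, were apart between the mice. Against all reads that mapped, in place of the sense gene counts, the family's level was 2839 CPM instead of 6993, because that total also holds multi-mapping reads and those outside genes; all 6 members fell with it. The unstranded column gave each member the counts of the sense column, so shares did not move. Each mouse alone gave the values printed for it. Leaving 1 mouse out leaves no comparison between them. The depth limits Mir181b-1 and Mir181a-2, whose 29 to 59 counts per mouse give the widest intervals.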
